A study of Danio rerio with 16 samples.

Results

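To determine what loss of gfi1b alone did to the transcriptome of the zebrafish embryo, the 2 RNA-seq libraries of gfi1b-/- embryos were compared with the 2 libraries of WT embryos across all genes, and all 16 libraries of the series were used to estimate the spread. RNA came from whole embryos at 15 h post fertilization (hpf). The gfi1b-/- embryos carried smu11, a CRISPR/Cas9 insertion predicted to disrupt the zinc fingers of Gfi1b, and were picked by genotyping from intercrosses of heterozygous parents. The WT embryos were wild type siblings, for which no cross was named, and both groups had intact gfi1aa and gfi1ab. The other 12 libraries, 2 for each genotype, came from the single mutants gfi1aa-/- and gfi1ab-/-, the double mutants (DM) gfi1b/1ab DM, gfi1aa/1b DM and gfi1aa/1ab DM, and the embryos lacking all 3 gfi1 genes (gfi1 TM). The parents of the gfi1aa/1b DM and gfi1 TM embryos were themselves homozygous for the gfi1b mutation, and no cross is given for gfi1b/1ab DM in the sources used here. Each mutation is 1 allele, and neither the number of embryos in a library nor its clutch is given in the sources used here, so the p-values measure the spread between these libraries, which may be technical. Libraries held 15657371 to 22524501 counts on genes, the 4 compared here 18088212 to 20541651, and 19903 of 32520 genes had enough counts to be tested.

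Gfi1b is a transcriptional repressor of the Gfi1 family. Its SNAG domain recruits the histone demethylase Lsd1 (kdm1a) with the CoREST proteins, and its C2H2 zinc fingers bind DNA. In mice, Gfi1b is required for the development of red blood cells and platelets. At the stage sampled here the zebrafish embryo is forming somites, and the lateral plate mesoderm holds the hemangioblasts, progenitors that give rise to the first red blood cells and to endothelium.

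The mutant allele is read out by PCR, and the primer pair used to genotype gfi1b is shown since it defines the groups compared. Both primers are written 5′ to 3′, with the sequence taken from the supplementary primer list of the study.
gfi1b forward primer: gttcatgctaactcagtgcatac
gfi1b reverse primer: tctgaactcctgatatgaggc

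The transcript of gfi1b (ENSDARG00000079947) was still present in the mutants. It had 3.98 and 3.41 CPM (counts scaled to library size) in the gfi1b-/- libraries, against 3.45 and 2.57 CPM in the WT libraries, from 73 and 70 counts against 69 and 54 counts. The ranges of the groups overlapped, and the log2 fold change of 0.30 (SE 0.26) did not pass the test (edgeR quasi-likelihood test, Benjamini-Hochberg adjusted p = 0.553). An insertion leaves the rest of the transcript to be counted, so this level does not check the genotype of a library. The paralog gfi1aa had 11.1 and 13.02 CPM in gfi1b-/- and 10.7 and 10.9 CPM in WT, where the mutant libraries were both above WT without passing the test (log2 fold change 0.16, SE 0.16, adjusted p = 0.577). The paralog gfi1ab had 1.53 and 1.90 CPM in gfi1b-/- and 1.85 and 2.10 CPM in WT, with overlapping ranges (log2 fold change fell by 0.20, SE 0.29, adjusted p = 0.739). kdm1a, which encodes Lsd1, had 337.0 and 338.6 CPM in gfi1b-/- against 300.7 and 316.7 CPM in WT (log2 fold change 0.13, SE 0.06, adjusted p = 0.216). Of 21 tested genes of the Gfi1 family, of other SNAG repressors and of the Lsd1-CoREST complex, 0 passed an adjusted p of 0.05 and 0 passed an unadjusted p of 0.05, while DESeq2 on all 16 libraries also called 0. Without WT replicate 2, 1 of these genes was called higher. Over all tested genes 9.46% passed the threshold in either direction and 23.8% passed an unadjusted p of 0.05. Without the gfi1 TM libraries, 1 of the 21 genes was called lower. The median log2 fold change of the 21 genes was 0.02, beside 0.00 over all genes.

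**Figure D1:**
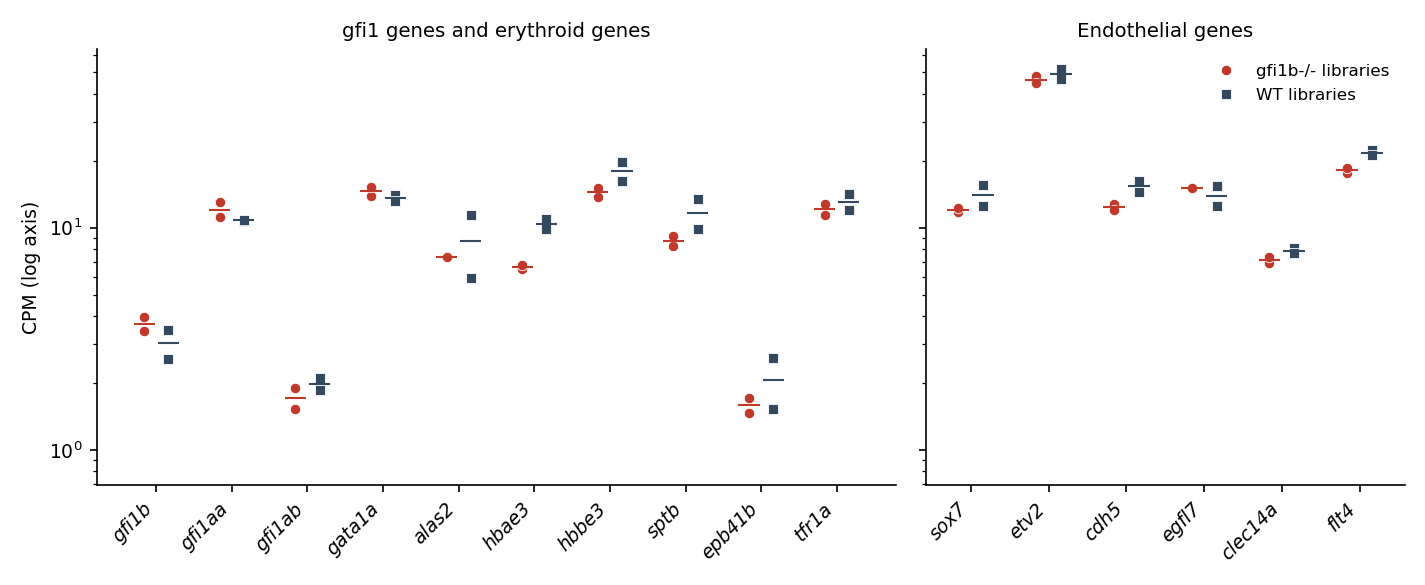
Expression of the gfi1 genes and 7 erythroid genes (left) and of 6 endothelial genes (right) as CPM on a log axis, with a point for each library of gfi1b-/- (red circles) and WT (dark squares) and a line at the mean of each group (n = 2). For hbae3 both gfi1b-/- libraries, at 6.48 and 6.78 CPM, sit below both WT libraries, at 10.9 and 9.86 CPM, while for gata1a the groups overlap.

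No erythroid gene tested passed the threshold in gfi1b-/-. Among the 7 erythroid genes the study used as markers, 0 were called by edgeR and 0 by DESeq2 on all 16 libraries, and 1 was lower at an unadjusted p under 0.05. The erythroid master regulator gata1a had 13.9 and 15.3 CPM in gfi1b-/- and 14.1 and 13.2 CPM in WT, with overlapping ranges (log2 fold change 0.10, SE 0.14, adjusted p = 0.729). alas2, the first enzyme of heme synthesis in red cells, had 7.41 and 7.36 CPM in gfi1b-/- and 11.4 and 5.91 CPM in WT. The mutant libraries lay between the WT libraries, so no direction was given (log2 fold change -0.23, SE 0.30, adjusted p = 0.709). The embryonic alpha globin hbae3 had 6.48 and 6.78 CPM in gfi1b-/- and 10.9 and 9.86 CPM in WT. Both mutant libraries were below both WT libraries, but the log2 fold change of -0.65 (SE 0.22) missed the threshold (adjusted p = 0.0840, and between 0.0111 and 0.299 over the alternatives). It passed when no filter on low counts was used (0.0111), when the fit held the 4 libraries alone (0.0187) and without the gfi1 TM libraries (0.0219). The embryonic beta globin hbbe3 had 15.1 and 13.8 CPM in gfi1b-/- against 19.7 and 16.2 CPM in WT (log2 fold change -0.31, SE 0.28, adjusted p = 0.542). The membrane skeleton genes sptb (-0.41, SE 0.33) and epb41b (-0.37, SE 0.40) and the transferrin receptor gene tfr1a (-0.10, SE 0.25) also missed it. In all, 6 of the 7 log2 fold changes were below 0, with a median of -0.31. Over all tested genes 9.46% were called, 23.8% passed an unadjusted p of 0.05 and the median was 0.00. In lists as short as those of this paragraph, 0 calls cannot be told apart from that share. A further list of 25 erythroid genes of heme synthesis, globins and red cell membrane had 22 tested genes and 0 called by either tool, with 3 lower at an unadjusted p under 0.05 and a median of -0.15. In this list 1 gene was called lower without WT replicate 2, with no filter on low counts, in the fit on the 4 libraries alone and without the gfi1 TM libraries. Its lowest adjusted p was that of the heme synthesis gene hmbsb, at 11.99 and 13.5 CPM in gfi1b-/- and 17.04 and 17.6 CPM in WT (log2 fold change -0.44, SE 0.14, adjusted p = 0.0690). RNA of whole embryos cannot tell fewer cells of a type from less RNA per cell.

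Of the 6 endothelial genes the study names, 0 were called by edgeR and 0 by DESeq2 on all 16 libraries. At an unadjusted p under 0.05, 1 was lower, beside 23.8% of all genes in either direction. etv2, the ETS factor that starts the endothelial program, had 48.0 and 44.7 CPM in gfi1b-/- and 46.7 and 51.8 CPM in WT, with overlapping ranges (log2 fold change -0.09, SE 0.08, adjusted p = 0.536). The SoxF factor gene sox7 had 11.7 and 12.2 CPM in gfi1b-/- and 15.5 and 12.5 CPM in WT. Its mutant libraries were below WT by a narrow margin (log2 fold change -0.22, SE 0.14, adjusted p = 0.375). cdh5, the cadherin of endothelial junctions, had 12.8 and 12 CPM in gfi1b-/- and 16.2 and 14.5 CPM in WT (log2 fold change -0.31, SE 0.13, adjusted p = 0.173). Of 24 further endothelial genes, 1 was lower and 0 were higher, a share of 4.17% beside the 9.46% over all genes. This was tie1, a receptor tyrosine kinase of endothelium, with 5.89 and 7.46 CPM in gfi1b-/- against 12.3 and 9.29 CPM in WT. It fell by 0.69 on the log2 scale (SE 0.19, adjusted p = 0.0311), and the call was lost without WT replicate 1 and without either gfi1b-/- library, with 0 genes of the list lower. The VEGF receptor gene kdrl had 18.2 and 17.8 CPM in gfi1b-/- and 22.9 and 20.0 CPM in WT (log2 fold change -0.26, SE 0.11, adjusted p = 0.161). In the 24 genes, 16 log2 fold changes were below 0 and 8 above, with a median of -0.03. With no filter on low counts 4 genes of this list were called lower, and without the gfi1 TM libraries 2 were.

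Among 10 tested factors of blood and endothelial progenitors, 0 were called by edgeR and 0 by DESeq2 on all 16 libraries, beside 9.46% of all genes by edgeR. At an unadjusted p under 0.05, 1 of the 10 was higher and 2 were lower, beside 23.8% of all genes in either direction. The edgeR fit on the 4 libraries alone and that without the gfi1 TM libraries each called 1 of them higher. tal1, the basic helix-loop-helix factor of hemangioblasts, had 62.4 and 58.9 CPM in gfi1b-/- and 58.6 and 56.2 CPM in WT (log2 fold change 0.08, SE 0.08, adjusted p = 0.607). gata2a had 68.0 and 60.4 CPM in gfi1b-/- and 54.4 and 60.9 CPM in WT, with overlapping ranges. The lowest adjusted p of the list was that of ldb1a, whose protein bridges Lmo2 and Gata factors, with 241.9 and 242.4 CPM in gfi1b-/- and 211.8 and 214.2 CPM in WT. Its mutant libraries were both higher, by 0.19 on the log2 scale (SE 0.06, adjusted p = 0.0624). The list of 15 genes of primitive myeloid cells had 7 tested genes, without markers such as mpx, lyz, mpeg1.1 and csf1ra. Of the 7, 1 was lower (14.3%, beside 4.83% of all genes). cebpb, a bZIP factor, had 22.4 and 23.6 CPM in gfi1b-/- and 29.7 and 31.5 CPM in WT (log2 fold change fell by 0.41, SE 0.12, adjusted p = 0.0436). Without any 1 of the 4 libraries, with DESeq2 or with a replicate block, cebpb was not called. The thrombocyte list had 4 tested genes of 10, at low levels, and 0 calls by either tool, with 0 at an unadjusted p under 0.05. Of 12 tested genes of ear and hair cells, where Gfi1 proteins also act in mammals, 0 were called by either tool. At an unadjusted p under 0.05, 4 were higher and 2 lower, beside 23.8% of all genes in either direction. The edgeR fit on the 4 libraries alone called 1 higher.

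**Figure D2:**
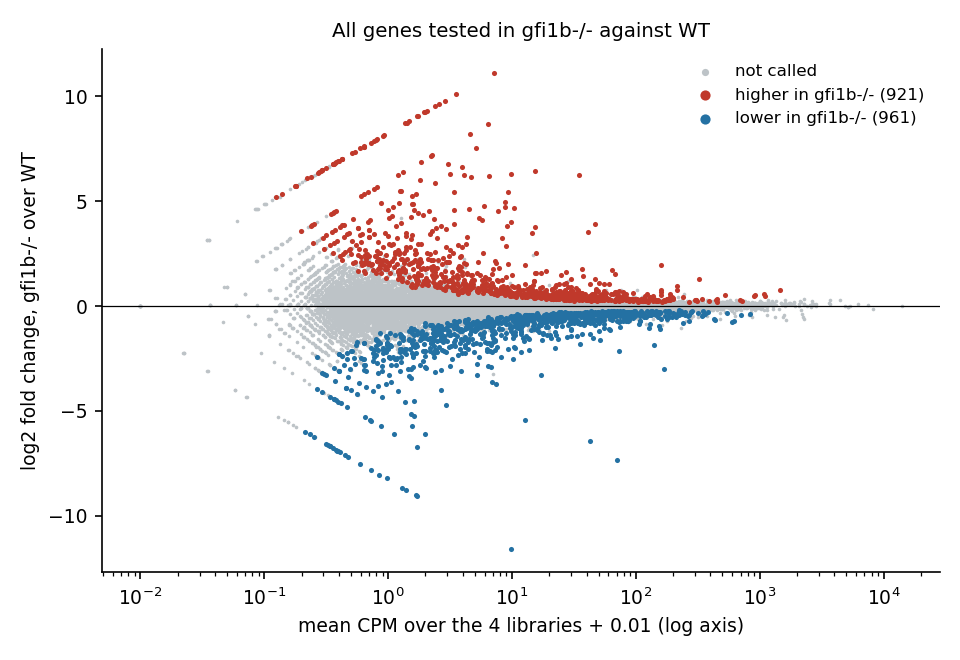
Log2 fold change of gfi1b-/- over WT (vertical axis) against the mean CPM of the 4 libraries plus 0.01 (log axis) for the 19903 tested genes. The 921 genes called higher (red) and 961 called lower (blue) spread over all levels of expression, and the straight lines of points at low CPM are genes with few or no counts in 1 of the groups.

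Across all genes, 921 were higher in gfi1b-/- (4.63% of those tested) and 961 were lower (4.83%). In unadjusted terms 4743 genes (23.8%) passed a p of 0.05. In each called gene the 2 mutant libraries lay on one side of the 2 WT libraries, which was also the case for 57.0% of all tested genes. The calls were of mixed size, with a median log2 fold change of 0.91 among the higher genes and -0.82 among the lower genes, where 440 genes (2.21%) and 408 genes (2.05%) reached a change of at least 1. WT had 0 counts in 49 of the higher genes and gfi1b-/- had 0 counts in 23 of the lower genes, and the medians stayed at 0.91 and -0.82 with these genes set to the bound that 3 counts per library give. A median can hardly move with so few genes changed, so this is no check of the sizes. The counts depended on each library. Between 367 and 468 genes were higher and between 302 and 597 lower when 1 library was left out, namely 401 and 302 without gfi1b-/- replicate 1, 367 and 316 without gfi1b-/- replicate 2, 468 and 484 without WT replicate 1, and 427 and 597 without WT replicate 2. A set of 241 higher and 200 lower genes was called in all 4 of these fits, each of which rests on a lone library in 1 group that is assumed to vary like the others.

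The largest increases were in genes that were all but silent in WT. ftr92, of the finTRIM family of fish TRIM proteins, had 3.71 and 4.096 CPM in gfi1b-/- (68 and 84 counts) and 0 counts in both WT libraries, and was at least 26.6-fold higher against a floor of 3 counts per WT library. The other 12 libraries had at most 0.225 CPM, so that the gfi1b-/- libraries stood above all others. Only the gfi1b-/- libraries had enough counts for ftr92 to be tested, so its place above the others is a description. col28a1a, a gene of type XXVIII collagen, had 13.95 and 11.5 CPM in gfi1b-/- and 0 and 0.0476 CPM in WT (491 counts against 1, a ratio of 518 with a 95% counting interval from 92.6 to 20500 that covers counting error only), and the other 12 libraries ranged up to 8.01 CPM. znf1113, a C2H2 zinc finger gene, had 66 and 41 counts in gfi1b-/- and 0 in WT, and was at least 19.1-fold higher. Here the other 12 libraries had 0.333 to 5.83 CPM, and WT was the group that stood apart. The same was seen for slc47a2.2, a transporter gene of the multidrug and toxin extrusion family, with 8.34 and 9.75 CPM in gfi1b-/-, 0 and 0.0476 CPM in WT and 2.04 to 14.6 CPM in the other libraries. It was also seen for clstn2, a calsyntenin gene, with 3.76 and 3.37 CPM in gfi1b-/-, 0.04996 and 0.0476 CPM in WT and 3.33 to 7.39 CPM elsewhere. Further genes of this kind were prkcq (protein kinase C theta; log2 fold change 5.44, SE 0.64, adjusted p = 0.000117) and the zinc finger genes znf977, znf1073, znf1072 and znf1062. Of the 12 named genes with the largest increase, WT stood apart from the 14 other libraries in 8, gfi1b-/- stood apart from its 14 others in 2, and neither did in slc13a5b, a citrate transporter gene, and pde11al, a phosphodiesterase gene. Among all 921 higher genes WT stood apart in 45.1% and gfi1b-/- in 16%. Over all tested genes WT stood below the others in 4.94% and gfi1b-/- stood above them in 2.54%. Reads of zinc finger and finTRIM genes can be shared with near-identical copies, which makes the level of a single copy uncertain. znf1072 and znf1073 had equal sums in both groups, 95 counts in gfi1b-/- and 2 in WT, and the call of znf1072 was lost without any 1 of the 4 libraries (adjusted p up to 0.109). The call of pde11al was lost without either WT library (up to 0.0762).

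Among the 12 largest decreases, actc1a had the highest level in WT. This alpha actin gene of heart and embryonic muscle had 0.981 and 0.975 CPM in gfi1b-/- (18 and 20 counts) against 67.8 and 102.1 CPM in WT (1357 and 2143 counts). The mutant libraries were far below WT (log2 fold change -6.43, SE 1.62, adjusted p = 0.0217). The other 12 libraries ranged from 0.614 to 318.9 CPM, and levels near those of gfi1b-/- also occurred in both gfi1aa-/- and both gfi1aa/1b DM libraries. Libraries of the same genotype could differ as much, as gfi1aa/1ab DM had 319 CPM in replicate 1 and 1.79 CPM in replicate 2. The call was lost without WT replicate 2 and without either gfi1b-/- library. nlrc8, of the NLR family of innate immune receptors, had 0 counts in both gfi1b-/- libraries against 2.85 and 3.81 CPM in WT (57 and 80 counts), and was at least 21.5-fold lower against the floor of 3 counts per library. The other 12 libraries ranged from 0 to 2.61 CPM with a median of 0, and WT stood above all 14 others by a narrow margin. Levels from 1.73 to 2.61 CPM occurred in both gfi1aa-/- and both gfi1aa/1b DM libraries. The gfi1aa/1b DM embryos carry the gfi1b mutation, so low nlrc8 did not follow that mutation in every background. mmd2b had 1 count in gfi1b-/- and 136 in WT, a ratio of 129 in favour of WT (95% counting interval 22.7 to 5130, which covers counting error only). The other 12 libraries ranged from 0 to 10.1 CPM, and the replicates of gfi1 TM had 0 and 4 CPM. The S100 calcium-binding gene s100v2 had 0.490 and 1.51 CPM in gfi1b-/-, 12.5 and 12.9 CPM in WT and 3.20 to 14.4 CPM in the other 12 libraries, and here it was gfi1b-/- that stood apart (log2 fold change -3.62, SE 0.27, adjusted p = 1.53e-06). The myomesin gene myom2a of the sarcomere M-band (-3.61, SE 0.57), the calcium channel gene cacna1ea (-3.31, SE 0.68), the astrotactin gene astn1 (-3.26, SE 0.45) and the sulfotransferase gene sult2st3 (-3.12, SE 0.56) were also lower than in WT. For astn1 WT, at 29.6 and 32.0 CPM, stood above all 14 others, which had 0.485 to 7.53 CPM. For sult2st3 it was gfi1b-/-, at 0.708 and 0.878 CPM, that stood below all others. The margin was narrow, as the replicates of gfi1 TM had 0.922 and 5.89 CPM. In myom2a and cacna1ea neither group stood apart. In the 12 named genes with the largest decrease, WT stood apart in 4, gfi1b-/- in 3 and neither in 5. Among all 961 lower genes WT stood apart in 36.3% and gfi1b-/- in 22.6%. Over all tested genes WT stood above the others in 4.17% and gfi1b-/- stood below them in 2.71%. The calls of mmd2b, cacna1ea and the BMP/retinoic acid inducible gene brinp3b were lost without WT replicate 1 and without either gfi1b-/- library (adjusted p up to 0.160), and that of the relaxin receptor gene rxfp1 was lost without gfi1b-/- replicate 1 or WT replicate 2 (up to 0.0631).

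Some of the genes with the lowest p-values were well expressed, while others were low in 1 of the groups. gpr19 had 16.5 and 13.8 CPM in gfi1b-/-, 1.85 and 1.33 CPM in WT and 1.65 to 20.5 CPM in the other 12 libraries. rmdn1 had 8.83 and 8.48 CPM in gfi1b-/-, 0.0999 and 0.571 CPM in WT and 6.60 to 15.2 CPM in the others. lmnb2, which encodes lamin B2 of the nuclear envelope, had 459.8 and 457.5 CPM in gfi1b-/- and 176.6 and 193.8 CPM in WT. It rose by 1.31 on the log2 scale (SE 0.09, adjusted p = 6.09e-07), and the other 12 libraries had 321.3 to 519.5 CPM, so that WT was the low group. rad18, a ubiquitin ligase gene of DNA damage tolerance, gave the same order, with 27.5 and 29.7 CPM in gfi1b-/-, 9.64 and 8.19 CPM in WT and 25.6 to 33.7 CPM in the others. So did the cell adhesion gene chl1a, with 53.7 and 54.6 CPM in gfi1b-/-, 19.6 and 21.0 CPM in WT and 36.2 to 53.9 CPM in the others. tuba8l2, an alpha tubulin gene, had 39.1 and 36.3 CPM in gfi1b-/- and 308.1 and 295.4 CPM in WT, and fell by 3.0 on the log2 scale (SE 0.19, adjusted p = 4.11e-07). The other 12 libraries lay in between, from 69.0 to 283.9 CPM, so that each of the compared groups stood at an end of the range. The sialic acid synthase gene nansb had the same order at a smaller size, with 10.1 and 9.66 CPM in gfi1b-/-, 23.7 and 22.1 CPM in WT and 10.6 to 21.6 CPM in the others. gsk3bb, a gene of glycogen synthase kinase 3 beta, had 1.53 and 1.61 CPM in gfi1b-/- and 11.2 and 12.5 CPM in WT, with 1.09 to 2.33 CPM elsewhere, and hmga1b, a gene of a chromatin architecture protein, likewise had WT alone at the high end. The genes of lowest p named here kept their calls under every alternative that refitted the comparison.

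**Figure D3:**
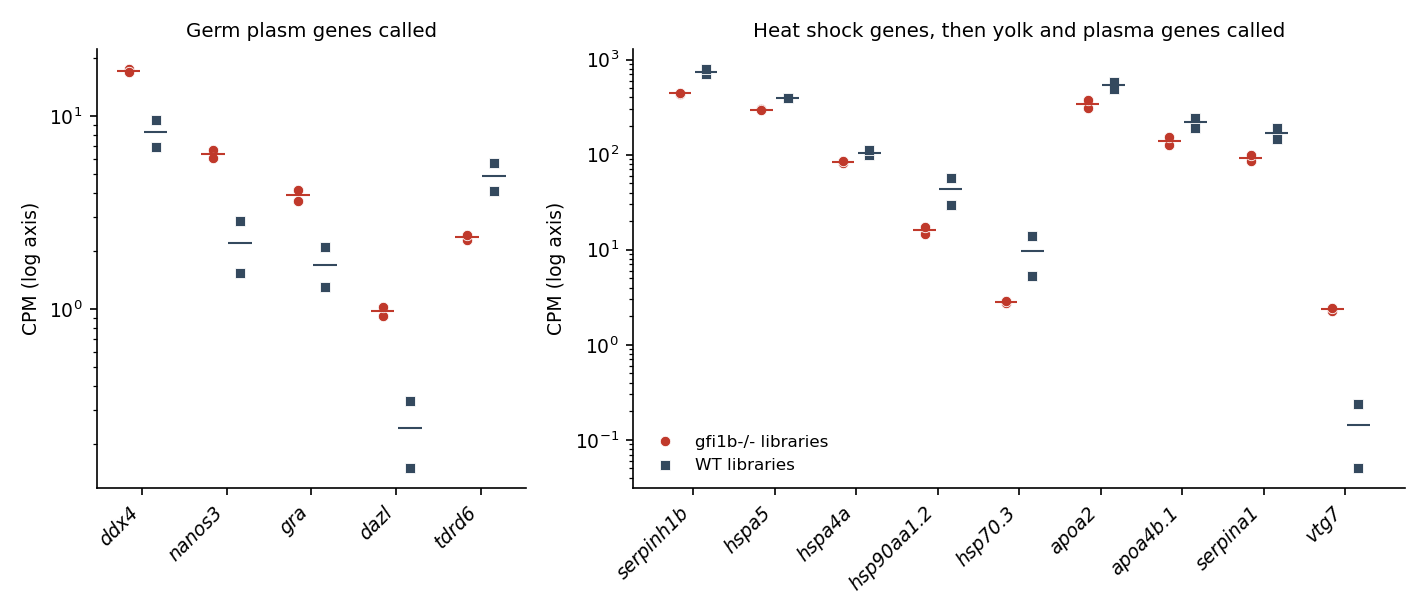
Expression of the called genes of the germ plasm list (left) and of the heat shock and the yolk and plasma lists (right) as CPM on log axes, with a point for each library of gfi1b-/- (red circles) and WT (dark squares) and a line at the mean of each group (n = 2). For ddx4 the gfi1b-/- libraries, at 17.5 and 16.9 CPM, sit above the WT libraries, at 6.95 and 9.52 CPM, while for hsp70.3 the order is turned round and WT replicate 2 is the highest.

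Germ plasm genes were higher on balance in gfi1b-/-, with a median log2 fold change of 0.96 and 4 of 10 tested genes higher and 1 lower, where 9.46% of all genes were called in either direction. ddx4 (vasa), the RNA helicase of primordial germ cells, had 17.5 and 16.9 CPM in gfi1b-/- and 6.95 and 9.52 CPM in WT. It rose by 1.06 on the log2 scale (SE 0.25, adjusted p = 0.0150). The other 12 libraries ranged from 8.77 to 17.5 CPM, so neither group stood apart, and the replicates of gfi1 TM had 17.5 and 9.84 CPM. nanos3, needed for germ cell survival, had 6.65 and 6.09 CPM in gfi1b-/- and 1.55 and 2.86 CPM in WT (log2 fold change 1.52, SE 0.38, adjusted p = 0.0208), and here WT was below all other libraries. gra had 3.65 and 4.14 CPM in gfi1b-/- against 1.299 and 2.10 CPM in WT, and the translation regulator gene dazl had 0.926 and 1.02 CPM against 0.150 and 0.333 CPM. dnd1 was not called (2.40 and 2.68 CPM in gfi1b-/-, 1.55 and 1.57 CPM in WT). tdrd6, a Tudor domain gene of the germ plasm, went the other way, with 2.29 and 2.44 CPM in gfi1b-/- and 4.097 and 5.72 CPM in WT (log2 fold change fell by 1.05, SE 0.28, adjusted p = 0.0272). Here WT was above all other libraries, which had 0.866 to 2.68 CPM. DESeq2 on all 16 libraries called 3 genes of the list higher and 0 lower, and DESeq2 on the 4 libraries called 2 and 0. Neither called dazl or tdrd6, and dazl was also not called with a replicate block. The number of higher genes was 0 without either gfi1b-/- library and without WT replicate 1, and 3 without WT replicate 2, and of these fits only that without WT replicate 1 called tdrd6.

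Among heat shock genes, 5 of 15 tested genes were lower in gfi1b-/- (33.3%, beside 4.83% of all genes) and 0 were higher, with 1 higher at an unadjusted p under 0.05. hsp70.3, an inducible Hsp70, had 2.78 and 2.88 CPM in gfi1b-/- and 5.30 and 13.9 CPM in WT (log2 fold change fell by 1.76, SE 0.38, adjusted p = 0.00952), and its reads can be shared with near-identical copies. hsp90aa1.2, an Hsp90 chaperone gene, had 14.8 and 17.3 CPM in gfi1b-/- and 29.5 and 57.2 CPM in WT (log2 fold change fell by 1.43, SE 0.37, adjusted p = 0.0260). In both genes WT replicate 2 was well above WT replicate 1. serpinh1b, the collagen chaperone gene, had 436.6 and 444.7 CPM in gfi1b-/- and 700.9 and 793.4 CPM in WT, and hspa5, the chaperone of the endoplasmic reticulum, had 299.6 and 293.6 CPM against 396.4 and 394.1 CPM. hspa4a had 82.8 and 86.5 CPM in gfi1b-/- against 99.5 and 111.1 CPM in WT. In serpinh1b and hspa5 it was WT that stood above all other libraries, which had 356 to 644 CPM and 239 to 387 CPM. In hsp70.3, hsp90aa1.2 and hspa4a the gfi1b-/- libraries were below all others, in hsp70.3 by a narrow margin. Without WT replicate 2, or without either gfi1b-/- library, 0 genes of this list were lower, and without WT replicate 1 the number was 5, of which hspa5 was not one. The median log2 fold change of the list was -0.14.

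Genes of yolk and plasma proteins were lower on balance in gfi1b-/-, with 3 of 15 tested genes lower and 1 higher (26.7% called, beside 9.46% of all genes), 13 log2 fold changes below 0 and a median of -0.51. The apolipoprotein gene apoa2 had 311.2 and 372.1 CPM in gfi1b-/- and 582.9 and 491.4 CPM in WT (log2 fold change fell by 0.65, SE 0.15, adjusted p = 0.0123). apoa4b.1 had 127.2 and 154.1 CPM in gfi1b-/- and 245.3 and 192.4 CPM in WT, and the protease inhibitor gene serpina1 had 84.8 and 99.2 CPM against 190.7 and 146.4 CPM. The mutant libraries were below WT in these 3 genes, and WT replicate 1 was the highest of the 4. The summed level of the list was 9690 and 10600 CPM in gfi1b-/- and 15900 and 11600 CPM in WT. Without WT replicate 1 or gfi1b-/- replicate 1, 0 genes were lower, and 2 were lower without gfi1b-/- replicate 2. The higher gene was the vitellogenin gene vtg7, with 2.29 and 2.44 CPM in gfi1b-/-, 0.04996 and 0.238 CPM in WT and 0.0603 to 4.03 CPM in the other 12 libraries (log2 fold change 3.96, SE 0.71, adjusted p = 0.00295).

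In the hatching gland list 2 genes of 11 tested gene IDs were lower and 1 was higher (27.3% called, beside 9.46% of all genes). The hatching enzyme gene he1.2 had 57.1 and 68.4 CPM in gfi1b-/- and 92.4 and 113.5 CPM in WT (log2 fold change fell by 0.71, SE 0.13, adjusted p = 0.00280), and the secretory factor gene xbp1 had 259.3 and 260.8 CPM against 308.5 and 303.3 CPM. For he1.2 the other 12 libraries ranged from 15.9 to 92.8 CPM, so levels below those of gfi1b-/- also occurred in other genotypes. The related enzyme gene he1.1 ran the other way, with 445.0 and 562.3 CPM in gfi1b-/- and 421.4 and 365.6 CPM in WT (log2 fold change 0.36, SE 0.10, adjusted p = 0.0395). Of the 2 lower genes of this list 0 were called without gfi1b-/- replicate 1 and 1 without each of the other libraries, and the higher gene lost its call without gfi1b-/- replicate 2 or WT replicate 2. The share called was at or below that of all genes in the lists of muscle (5.88%), neural crest (8.33%) and circadian clock genes (8.33%). Of 17 tested muscle genes, smyhc1, the slow myosin heavy chain, was lower at 593.2 and 621.9 CPM in gfi1b-/- against 828.6 and 777.8 CPM in WT (log2 fold change fell by 0.40, SE 0.08, adjusted p = 0.00465), with 0 calls in the list without gfi1b-/- replicate 1. Of 12 neural crest genes, the pan-crest marker crestin was lower at 8.12 and 10.7 CPM in gfi1b-/- against 17.1 and 17.3 CPM in WT (log2 fold change fell by 0.86, SE 0.18, adjusted p = 0.00898), and gfi1b-/- was below all 14 other libraries. Without gfi1b-/- replicate 1 that call was lost, and without WT replicate 1 the list had 2 lower genes, and without WT replicate 2 it had 1 higher gene. Among 24 circadian clock genes 2 were higher, nr1d2a at 3.87 and 3.17 CPM in gfi1b-/- against 2.15 and 1.095 CPM in WT, and per1a at 0.381 and 0.975 CPM against 0.200 and 0.0952 CPM. Without gfi1b-/- replicate 2 or WT replicate 2, 0 of the circadian genes were called. Of 19 segmentation clock genes, 13 p53 target genes and 7 genes of the MHC class I region, 0 were called by edgeR on all 16 libraries. At an unadjusted p under 0.05 there were 3, 4 and 1, beside 23.8% of all genes, and DESeq2 on all 16 libraries called 0, 1 and 0. The edgeR fit on the 4 libraries alone called 2 p53 target genes and 1 gene of the MHC class I region lower. Without WT replicate 2, 1 segmentation clock gene was called higher. Markers of muscle, segmentation clock, neural tissue, erythroid cells, endothelium, epidermis, hatching gland and germ cells were all detected in the whole embryos, and the highest summed level was 13400 and 12800 CPM in gfi1b-/- and 13600 and 14200 CPM in WT, for the epidermal markers.

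To see which of the compared groups differed from the rest of the series, the called genes were sorted by whether the gfi1b-/- libraries or the WT libraries stood apart from all 14 other libraries on the side of the call. WT alone stood apart in 725 of the 1882 called genes (38.5%), gfi1b-/- alone in 325 (17.3%), both in 39 (2.07%) and neither in 793 (42.1%). Over all tested genes, WT was apart from the other 14 libraries in 9.11% (above in 4.17%, below in 4.94%) and gfi1b-/- in 5.25% (above in 2.54%, below in 2.71%). The share with WT alone apart was 43.2% among the higher genes and 34.0% among the lower genes. Since WT is on one side of every call, its position and that of the mutant are not independent, and no test was made.

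The gfi1b mutation could also be compared with its absence in 3 other backgrounds, which share no library with gfi1b-/- against WT. In gfi1b/1ab DM against gfi1ab-/-, where gfi1aa is intact in both, 76 genes were called (0.382%), 49 higher (0.246%) and 27 lower (0.136%), with 1500 genes (7.54%) at an unadjusted p under 0.05. In gfi1aa/1b DM against gfi1aa-/-, 2048 genes were called (10.3%; 4.8% higher and 5.49% lower). In gfi1 TM against gfi1aa/1ab DM 1008 were called (5.06%; 2.96% higher and 2.11% lower). Of the 921 genes higher in gfi1b-/- than WT, 54.5% had a log2 fold change above 0 in gfi1b/1ab DM, where 49.3% of all genes did, and 13 were called higher and 3 lower. In gfi1aa/1b DM 46.9% of them were above 0, beside 49.7% of all genes, and 103 were called higher and 156 lower. In gfi1 TM 71.2% were above 0, beside 51.3% of all genes, and 134 were called higher and 15 lower. The 961 lower genes had log2 fold changes below 0 in 56.1%, 57.5% and 64.7% of cases in the same order of backgrounds, with 6, 138 and 107 called lower and 10, 87 and 29 called higher. Their median log2 fold change was -0.03, -0.07 and -0.12, and that of the higher genes was 0.02, -0.03 and 0.22. Only 8 of the 1882 genes were called in the same direction in all 4 comparisons.

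**Figure D4:**
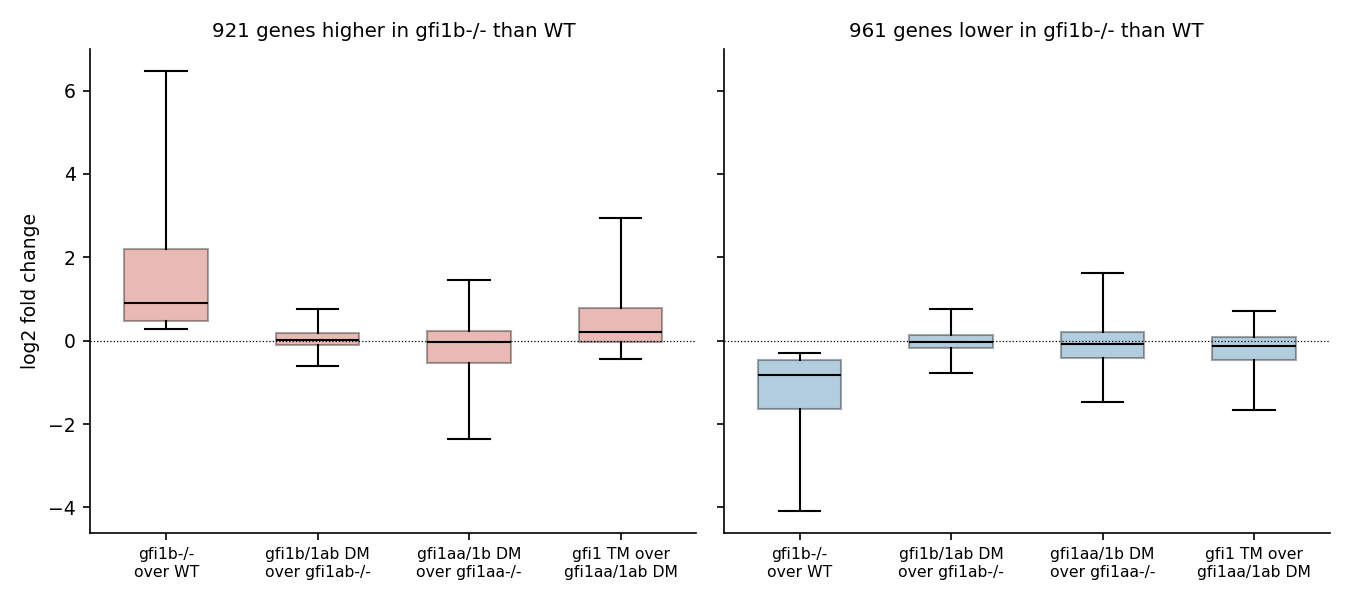
Log2 fold change of the mutant over its background for the 921 genes called higher (left) and the 961 called lower (right) in gfi1b-/- against WT, in that comparison, which chose the genes, and in 3 comparisons with no shared library. Boxes span the quartiles with a line at the median and whiskers reach from the 5th to the 95th percentile, and the medians of the 3 other comparisons lie between -0.03 and 0.22 on the left and between -0.12 and -0.03 on the right.

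Whether gfi1b-/- against WT differed from gfi1b/1ab DM against gfi1ab-/- was tested as an interaction of gfi1b with gfi1ab, with gfi1aa intact throughout. It called 574 of all genes (2.88%), 308 with a larger value in gfi1b-/- against WT (1.55%) and 266 with a smaller one (1.34%). Among the genes called in gfi1b-/- against WT, 273 of the higher and 221 of the lower genes passed it on the side of their call, and 1 passed it on the other side. This count shares the gfi1b-/- and WT libraries with the call itself. lmnb2, with a log2 fold change of 1.31 in gfi1b-/- against WT, had -0.05 in gfi1b/1ab DM against gfi1ab-/- (interaction 1.36, SE 0.12, adjusted p = 2.19e-05). tuba8l2 had -3.0 and -0.11 in these comparisons (interaction -2.89, SE 0.26, adjusted p = 2.19e-05). For the called genes of the germ plasm list the interaction was past the threshold in 0 of 5 (lowest adjusted p = 0.0714), for those of the heat shock list in 1 of 5 (hsp70.3, adjusted p = 0.0128). In gfi1b/1ab DM against gfi1ab-/-, 0 genes of the germ plasm list were called, so 0 of 5 does not show a shared change. Among called genes of other lists, crestin (interaction adjusted p = 0.00551), he1.2 (0.00725) and vtg7 (0.0395) were past the threshold.

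In 46 of the tested genes (0.231%) all 8 libraries with the gfi1b mutation lay above or below all 8 without it, 28 above (0.141%) and 18 below (0.0904%). Of these, 30 were called in gfi1b-/- against WT. The place of each gene was taken from the RefSeq annotation of the GRCz12tu assembly by its symbol, which gave a place to 37 of the 46 genes and to 82.9% of all tested genes. Chromosome 21, which carries gfi1b, held 16 of the 37, or 43.2%, while it held 3.85% of all tested genes with a place, and no other chromosome held more than 3. The nearest were stom, a stomatin gene 4 tested genes from gfi1b, and unc5da, a netrin receptor gene 7 genes away on the other side. stom had 110 to 169 CPM in the libraries with the mutation and 171 to 235 CPM in those without, and was not called in gfi1b-/- against WT (log2 fold change -0.38, SE 0.16, adjusted p = 0.166). The furthest were zgc:152891, 232 genes away, and zgc:163077, 181 genes away on the other side. Of the 16 genes, 12 lay between 51 and 250 places on the side of stom, where they made up 6% of the 200 tested genes.

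**Figure D5:**
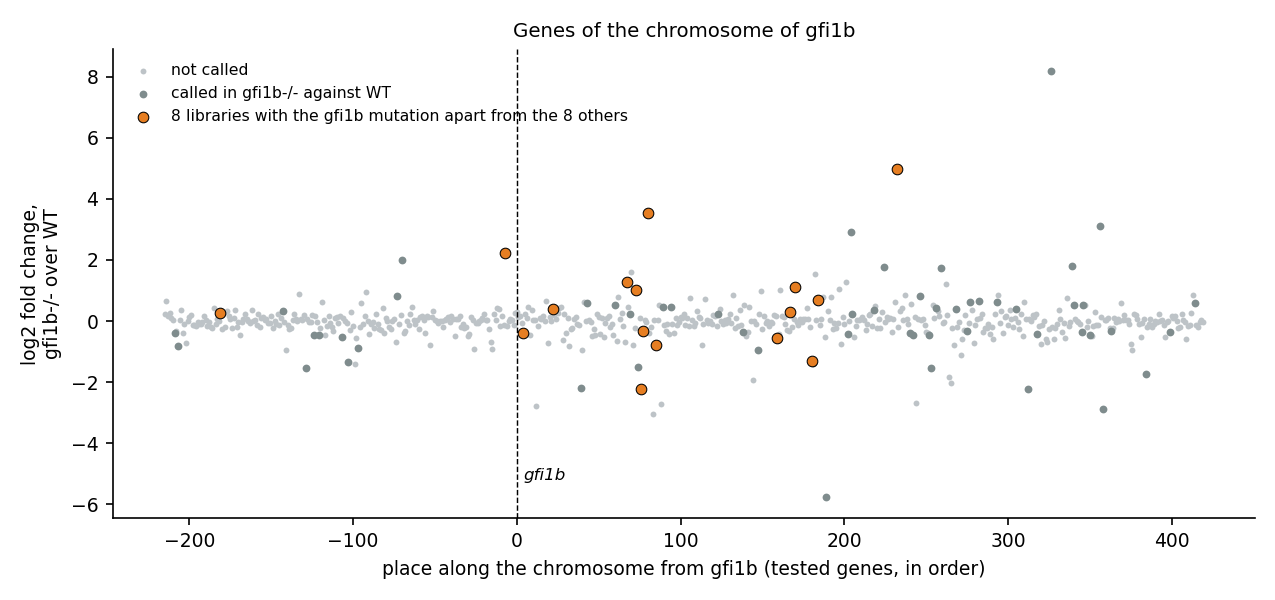
Log2 fold change of gfi1b-/- over WT (vertical axis) for the 634 tested genes of chromosome 21 and gfi1b, by their place from gfi1b in the order of tested genes (horizontal axis). The 16 genes in which the 8 libraries with the gfi1b mutation do not overlap the 8 others (orange) lie between places -181 and 232, and their log2 fold changes run from -2.21 to 4.97.

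The clearest of these genes was si:ch73-112l6.1, 80 places from gfi1b, which also had the lowest p of all named genes that follow the mutation. It had 78.1 and 74.2 CPM in gfi1b-/- and 5.60 and 7.52 CPM in WT (log2 fold change 3.53, SE 0.14, adjusted p = 1.91e-09). Over the series it ranged from 41.2 to 78.1 CPM in the 8 libraries with the mutation and from 5.49 to 17.6 CPM in the 8 others. It was called higher in all 3 other backgrounds, with log2 fold changes of 1.94 in gfi1b/1ab DM, 1.33 in gfi1aa/1b DM and 3.13 in gfi1 TM. cbr1l, a carbonyl reductase gene 67 places away, had 70.8 and 61.5 CPM in gfi1b-/- and 30.6 and 23.4 CPM in WT (log2 fold change 1.29, SE 0.13, adjusted p = 2.52e-05), and 61.5 to 101.9 CPM against 23.4 to 45.7 CPM in the libraries with and without the mutation. myo7ab, an unconventional myosin gene 76 places away, was lower, with 1.53 and 1.27 CPM in gfi1b-/- and 7.44 and 5.52 CPM in WT (log2 fold change fell by 2.21, SE 0.29, adjusted p = 0.000312). It had 0.895 to 1.53 CPM with the mutation and 2.68 to 14.1 CPM without it. slc29a2, a nucleoside transporter gene, had 10.8 and 9.51 CPM in gfi1b-/- and 23.7 and 26.5 CPM in WT, and prdx5, a peroxiredoxin gene, had 75.6 and 77.5 CPM against 121.9 and 102.8 CPM. zgc:152891 had 16.1 and 17.8 CPM in gfi1b-/- and 0.450 and 0.619 CPM in WT, a log2 fold change of 4.97 (SE 0.45, adjusted p = 1.02e-05). It had 13.4 to 21.8 CPM with the mutation and 0.450 to 10.3 CPM without it, and WT was below all other libraries. In the other backgrounds its log2 fold change was smaller, at 1.79 in gfi1b/1ab DM, 0.76 in gfi1aa/1b DM, where it was not called, and 1.84 in gfi1 TM. An effect of the mutation and an effect of other sequence carried on the same chromosome copies cannot be told apart in these libraries.

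Other called genes that followed the mutation lay on other chromosomes or had no place in the annotation. The integrin gene itga2.3 had 1.199 and 0.878 CPM in gfi1b-/- and 0.0999 and 0.0476 CPM in WT (40 counts against 3, a ratio of 14.1 with a 95% counting interval from 4.48 to 71.1), and it was called higher in all 3 other backgrounds. grik1b, a kainate receptor gene, had 3.38 and 3.17 CPM in gfi1b-/- and 0.550 and 0.286 CPM in WT (log2 fold change 2.96, SE 0.44, adjusted p = 0.000761). si:ch211-57b15.1 had 3 counts in gfi1b-/- and 70 in WT, a ratio of 22.1 in favour of WT (95% counting interval 7.26 to 110.0). The valine tRNA synthetase gene vars2 (-0.35, SE 0.09) and the cathepsin D gene ctsd (-0.26, SE 0.07) were lower, and the kinase gene cdk17 (0.45, SE 0.09), the zinc finger gene znf395a (0.22, SE 0.06) and the trafficking gene tom1 (0.39, SE 0.10) were higher. The calls of vars2, znf395a and tom1 were lost without any 1 of the 4 libraries and with DESeq2 (adjusted p up to 0.225, 0.256 and 0.178), and that of ctsd was lost without WT replicate 1 and without either gfi1b-/- library (up to 0.199).

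Among the 50 tested genes on each side of gfi1b, 3 of 100 were called, 2 higher and 1 lower, beside 8.85% of all genes with a place. From 51 to 250 places on the side of stom, 28 of 200 genes were called (14%), with 10 among the nearest 50 and 9 among the furthest 50. Past 250 places on that side the share was much the same, with 24 of 169 genes called (14.2%). Windows beyond the 50 nearest genes were not fixed in advance. On the whole of chromosome 21 without gfi1b, 34 genes were higher and 32 lower of 634 (10.4%). Called genes had a place in 77.5% of cases, so shares of calls were not compared between chromosomes.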

How the data were processed

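RNA of whole embryos was sequenced by the authors (TRIzol extraction, NEBNext Ultra libraries), mapped with STAR to GRCz11 per the labels and methods, and deposited as raw counts per gene for each of 16 libraries, as whole numbers without normalization. Per the file headers and layout, counts of both strands were joined, so overlapping and antisense genes cannot be told apart. The table of all libraries and the 16 separate files held equal counts for all 32520 genes. Samples were grouped by their labels, 2 libraries for each of 8 genotypes. The column named gfi1ko was taken as gfi1 TM, the only genotype left without a column.

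The model used edgeR (4.0.16, with R 4.3.3) with TMM factors (0.956 to 1.03), filterByExpr by genotype and 1 mean per genotype over all 16 libraries, with 8 residual degrees of freedom and a common dispersion of 0.00835. The quasi-likelihood test was two-sided, and genes with a Benjamini-Hochberg adjusted p under 0.05 over all tested genes were called. The SE was derived from the log2 fold change and its F statistic. CPM used the TMM library sizes. With 2 libraries per group the spread was pooled over genotypes. A group at 0 was bounded by 3 counts per library, and groups with 1 to 3 counts got a Clopper-Pearson ratio interval at 95%. These intervals cover counting error only. Tables were made with Python (3.11.15), pandas (2.3.3), numpy (2.4.6) and scipy (1.17.1).

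The genes named were the gfi1 genes, members of 19 gene lists, the 12 largest changes in each direction and the 6 lowest p-values in each direction among called genes with a symbol, at least 1 CPM on average and groups that do not overlap, and called genes in which all libraries with the gfi1b mutation lay on one side of the others. stom and zgc:163077, which were not called, and the keratin genes were named after their values were seen. The comparison, the lists and the alternatives were chosen with earlier results of these data known. Alternatives were other size factors, filters and thresholds, DESeq2 (1.42.0), fits on the 4 libraries, a replicate block and leaving out each library. A search for the Gfi1 core motif in promoters was not run. A gene that met the rule is not reported here.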

Additional observations from a re-analysis of the deposited data

Results flagged for a closer look

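The contrast of gfi1b-/- against WT differed from that of gfi1b/1ab DM against gfi1ab-/- in 574 genes by the interaction test (edgeR quasi-likelihood test, adjusted p under 0.05), and this was also so for 24 of the 33 genes named for their size of change or lowest p, with adjusted p-values from 1.15e-05 to 0.0495. On the log2 scale the difference between the contrasts was positive for ftr92 (11.30), znf1113 (8.81), slc47a2.2 (8.12), col28a1a (7.19), znf977 (5.93), clstn2 (5.35), prkcq (5.33), znf1062 (5.15), slc13a5b (5.12) and znf1073 (5.06). It was also positive, at smaller sizes or in better expressed genes, for rmdn1 (4.63), gpr19 (3.31), rad18 (1.72), lmnb2 (1.36) and chl1a (1.2). It was negative for vwa11 (-5.67), myom2a (-4.74), trim35-20 (-3.85), s100v2 (-3.76), tuba8l2 (-2.89), astn1 (-2.69), gsk3bb (-2.34), hmga1b (-1.85) and nansb (-1.45). In ftr92 and znf1113, WT had 0 counts, so the fitted values depend on the prior count and are no bound. WT had only 1 to 3 counts in col28a1a, slc47a2.2, clstn2, znf977, znf1062 and znf1073, and gfi1b-/- had 2 in vwa11. The sizes for these genes are also uncertain. Since the genes were chosen for a large difference between gfi1b-/- and WT, the size of the interaction is a description. What sets the contrasts apart was not tested.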

How the results depend on the processing

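Under other size factors, a filter of at least 1 CPM, edgeR on the 4 libraries and DESeq2 on all 16 libraries, the counts of higher and lower genes stayed within 1.5 times those reported, as did the counts of the 3 other backgrounds and the interaction under each alternative run for them. DESeq2 on the 4 libraries called 596 genes higher, and no filter on low counts called 1481 lower. A log2 fold change of at least 1 left 440 higher and 408 lower. Similar counts did not mean the same genes. DESeq2 on all 16 libraries kept 74.4% of the higher and 72.0% of the lower calls. DESeq2 on the 4 libraries kept 56.1% and 60.6%. Without 1 library, 367 to 468 genes were higher and 302 to 597 lower, in fits with fewer samples. Without the gfi1 TM libraries, chosen after seeing the data as the genotype with the largest spread between replicates (SD of the log2 difference 0.602), 1296 were higher and 1364 lower. Of 88 named called genes, 0 turned their sign, and 26 to 40 lost the call when 1 library was left out. The replicate numbers gave no pairing (correlation of replicate differences between gfi1b-/- and WT -0.01, and -0.09 to 0.09 over all 28 pairs of genotypes), and the replicate block called 873 genes higher and 868 lower. With total counts as library sizes, 44 genes followed the mutation and 17 of them lay on chromosome 21.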

Other observations

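Other gene families, grouped by symbol after the values were seen, are given as a description. Of 310 tested genes named znf and a number, 39 were higher and 9 lower in gfi1b-/- (15.5%, beside 9.46% over all genes), and WT stood below all 14 other libraries in 20 of the 39. Among all 921 higher genes WT stood below them in 45.1%. Of 89 genes of ribosomal proteins of both subunits, 2 were higher and 0 lower at an adjusted p under 0.05 by edgeR, and of 340 solute carrier genes 12 were higher and 14 lower (7.65%). The epidermal stem cell factor gene tp63 had 114.8 and 115.9 CPM in gfi1b-/- and 90.4 and 91.0 CPM in WT, a log2 fold change of 0.35 (SE 0.08, adjusted p = 0.0147) that lost its call without any 1 of the 4 libraries (up to 0.105), while the keratin genes krt4 and krt5 were not called.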
